A study of Mus musculus with 6 samples.

Results

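The genes described here encode the presynaptic machinery that stores transmitter in synaptic vesicles, docks and primes the vesicles at the active zone, fuses them when calcium enters, and takes their membrane back. They were chosen by name, 38 in all, out of 51826 genes in the deposited table of the study, and each of the 38 symbols was found on a single row. The study sequenced messenger RNA from mouse tissue that the labels call the paraventricular nucleus of the hypothalamus. Its design compares knockout of ADAM17, a membrane protease that sheds cell surface proteins, in glutamatergic neurons with wild type. There were 6 libraries, with 3 of wild type (WT) and 3 labelled as a glutamatergic neuronal ADAM17 knockout (KO). In each genotype replicates 1 and 2 are male and replicate F1 is female. The labels name no treatment, strain, age, Cre driver or deleted exon, and do not say whether a library holds 1 animal or several, so p-values measure only the spread between these libraries.

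In textbook terms, synapsins tether vesicles into a reserve pool, and the active zone scaffold of Bassoon, Piccolo, RIM, ELKS and Munc13 proteins docks and primes a small part of them beside calcium channels. Synaptobrevin on the vesicle (Vamp1 or Vamp2) then zips together with syntaxin and the Snap25 protein on the plasma membrane into the SNARE complex. Complexins hold and assist this complex, synaptotagmins sense the calcium that triggers fusion, the ATPase NSF takes the spent complexes apart, and dynamin and amphiphysin recover the membrane. Every neuron that releases transmitter uses this set, with paralogues that differ between brain regions. In bulk tissue, fewer cells of a type and less RNA per cell cannot be told apart.

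Total counts per library lay between 35114426 and 54421330, and the 38 genes held between 1.92% and 2.1% of them. Levels are given as CPM, the count divided by the library size after TMM scaling, a trimmed mean that sets most genes equal between libraries, and scaled to 1e+06. Values of a genotype are always listed in the order replicate 1, replicate 2 and replicate F1, and means carry the SD over 3 libraries. A pair of libraries stood apart. KO replicate 1 had 20.63% of its counts on mitochondrially encoded genes, against 7.22% to 9.2% in the other 5. WT replicate F1 had the highest sum of 9 cerebellar markers, at 368.2 CPM, followed by KO replicate 1 at 276.6 CPM, while the other 4 lay between 65.96 and 106 CPM. The granule cell gene Cbln3 stood at 65.5 CPM in WT replicate F1 and 33.5 CPM in KO replicate 1, and between 0.29 and 2.14 CPM elsewhere. Markers of the labelled nucleus were present, with Sim1 between 0.63 and 2.51 CPM, Avp between 5.25 and 38.2 CPM and Oxt between 4.0 and 27.6 CPM. Slc17a7, the vesicular glutamate transporter of cortex and hippocampus, stood between 662 and 1019 CPM, and Slc17a6, that of most hypothalamic glutamatergic neurons, between 34.2 and 124.7 CPM. The targeted gene, Adam17, gave 17.1, 17.2 and 15.6 CPM in WT libraries and 15.4, 14.6 and 13.9 CPM in KO libraries. All 3 KO libraries lay below WT, a log2 fold change of −0.19 that did not pass the test (SE 0.11, edgeR adjusted p = 0.747), so the level of this gene does not by itself check the labels.

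Within the tissue the 38 genes spanned more than 2 orders of magnitude per unit length. These levels are TPM as deposited, transcript counts corrected for gene length, as means over the 6 libraries. Snap25, the plasma membrane SNARE, was highest at 2902 TPM, followed by Vamp2 at 1151 TPM, the vesicle membrane protein gene Syp at 1056 TPM and the dynamin gene Dnm1 at 970 TPM. Syn3 was lowest at 15.1 TPM, below Rims3 at 17.4 TPM and Sypl at 17.8 TPM. The large scaffold genes Bsn and Pclo stood at 72.6 and 40.2 TPM. Paralogues differed widely in some families, with Syt1 at 889.6 TPM against 41.2 TPM for Syt2 and Unc13a at 120.2 TPM against 20.0 TPM for Unc13b, and little in others, with Sv2a at 252 TPM against 189 TPM for Sv2b. Every member passed the filter on low counts, and its lowest count in any library was 509, for Syn3 in KO replicate 1.

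**Figure D1:**
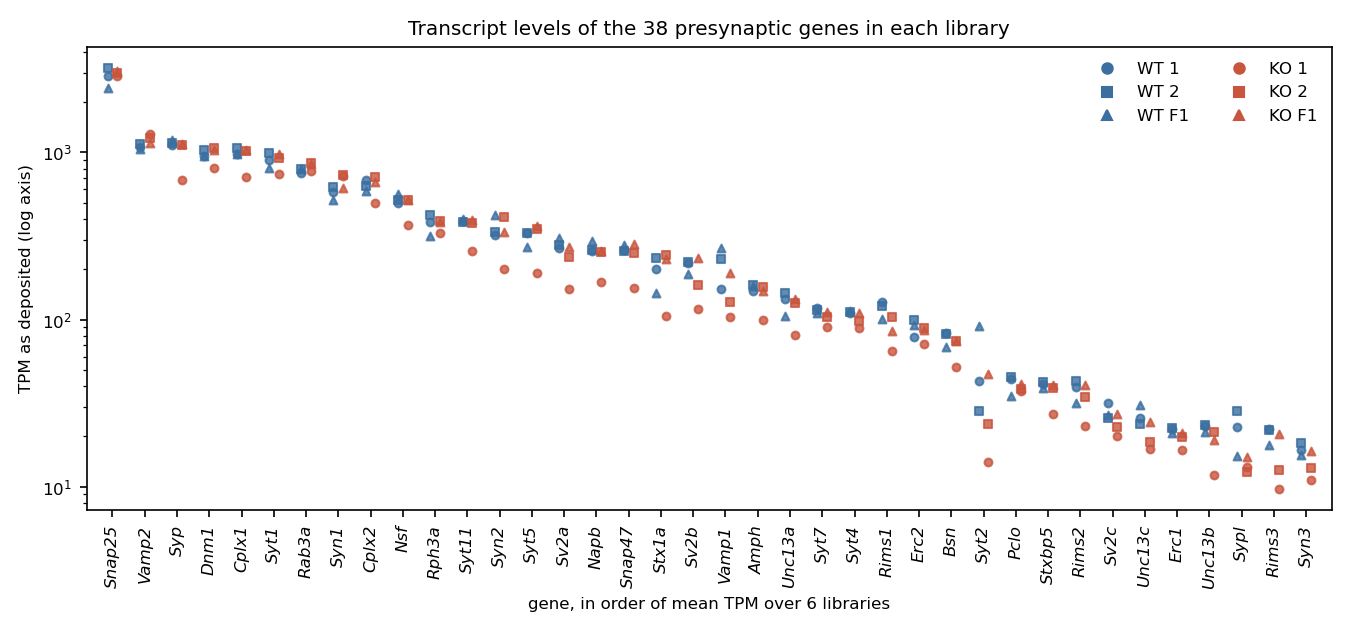
Deposited TPM of each of the 38 genes (log axis) in the 6 libraries, ordered by mean TPM, with WT in blue, KO in red, and circles, squares and triangles for replicates 1, 2 and F1. Snap25 leads at a mean of 2902 TPM and Syn3 is last at 15.1 TPM; for most genes KO replicate 1 is the lowest point on this scale, whose total includes the mitochondrial genes.

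The comparison of KO with WT gave no gene of this set past the threshold. In the edgeR quasi-likelihood fit with sex as a term, 0 of 38 had an adjusted p under 0.05, where 1 of all 18956 genes tested (0.00528%) did. DESeq2, limma-trend on TPM and voom with sample quality weights also called 0 of the 38. Of all genes DESeq2 called 75, limma-trend 4 or 5 by pseudocount, and voom 4. Below that threshold the values leaned one way on the TMM scale. At an unadjusted p under 0.05 there were 9 of the 38, where 6.38% of all genes were. All 9 were higher in KO, against 3.85% of all genes in that direction, and 0 were lower, against 2.53%. These counts depended on the scaling, with 1 higher and 3 lower under library totals and 0 higher and 3 lower with TPM at either pseudocount. Of all 18956 genes, 177 were higher and 1162 lower under library totals. With TPM at the pseudocounts 1 and 0.1, 85 and 82 were higher and 1302 and 1200 lower. The member counts also depended on the model terms, with 4 higher and 0 lower with genotype alone or with a replicate block. Of all genes, 595 were higher and 462 lower with genotype alone, and 597 and 406 with the block. Log2 fold changes, KO minus WT throughout, lay above 0 for 29 of 38 (76.3%) with a median of 0.08, against 49.4% of all genes and a median of −0.0036. The KO libraries all lay above the WT libraries for 10 members, against 6.61% of all genes, and below them for 0, against 7.32%. Abundant genes as a whole leaned the same way. Among the 438 genes at or above the members' median level of 316.3 CPM, 313 (71.5%) lay above 0 with a median of 0.09. At an unadjusted p under 0.05, 65 of these 438 were higher in KO and 7 were lower. The KO libraries all lay above the WT libraries for 88 of the 438 and below them for 10. This comparison was chosen after the values were seen.

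**Figure D2:**
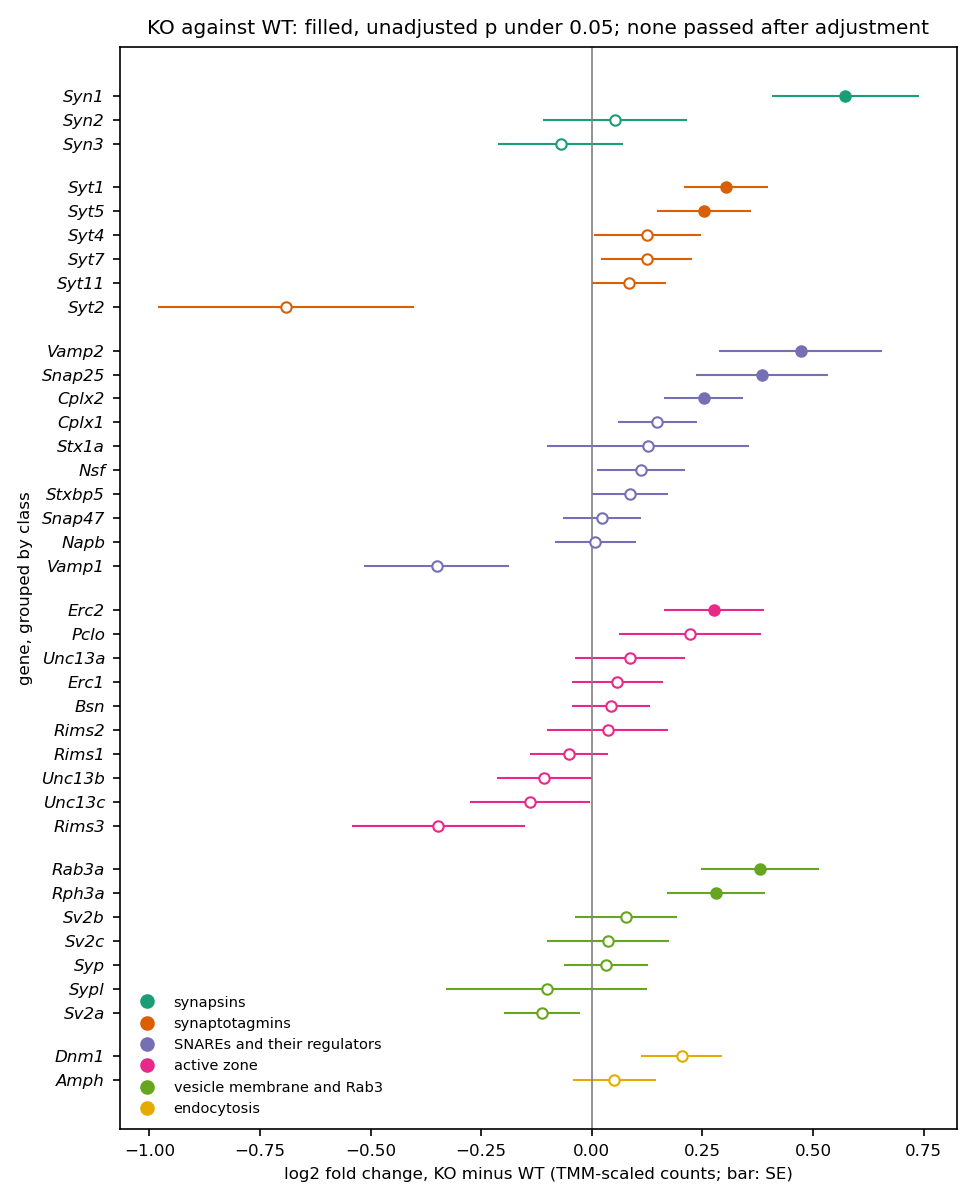
Log2 fold change of KO against WT for each gene, with its standard error as a bar, grouped and coloured by class; filled points have an unadjusted p under 0.05 and none passed after adjustment. The 9 filled points all lie above 0, led by Syn1 at 0.57, and Syt2 at −0.69 is the lowest.

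With all 6 libraries Syn1 stood higher in KO than the other synapsins did. Its contrast with Syn2, though not that with Syn3, was gone without WT replicate F1 and KO replicate 1. Syn1, the most abundant synapsin, which anchors reserve vesicles (ENSMUSG00000037217, chromosome X, 20860511 to 20921004, minus strand, GRCm38), gave 792, 861 and 701 CPM in WT libraries against 1592, 1106 and 866 CPM in KO libraries. The genotypes did not overlap, with KO replicate 1 far above WT and KO replicate F1 just above the highest WT library. The means were 784 ± 80.6 and 1188 ± 370 CPM (SD, n = 3 each). The log2 fold change was 0.57 (SE 0.17, edgeR adjusted p = 0.735), and it was 0.37 (SE 0.068, edgeR adjusted p = 0.513) without KO replicate 1. Syn2, its autosomal paralogue, gave 483, 504 and 626 CPM in WT libraries and 481, 667 and 517 CPM in KO libraries, so the genotypes overlapped throughout (log2 fold change 0.05, SE 0.16). Without WT replicate F1 and KO replicate 1 the log2 fold changes were 0.26 (SE 0.13) for Syn1 and 0.26 (SE 0.13) for Syn2. The low-abundance Syn3 gave 17.2, 18.6 and 16.6 CPM in WT libraries and 17.7, 14.1 and 18.1 CPM in KO libraries, again overlapping (−0.07, SE 0.14, edgeR adjusted p = 0.912). The ratio of Syn1 to Syn2 within a library, which no scaling can move, was 1.81, 1.87 and 1.22 in WT libraries and 3.62, 1.77 and 1.84 in KO libraries, taken from TPM. KO replicate 1 stood alone in that ratio and the other KO libraries lay within the WT range. In all, 16 of the 38 genes overlap another tested gene, and the strand setting of the counts is not given in the sources used here. Each synapsin has a tested gene on its opposite strand, with Timp1 and Araf for Syn1, Timp4 for Syn2 and Timp3 for Syn3. For Syn1 these partners had means of 0.72 (Timp1) and 85.4 CPM (Araf) in WT against 1.15 and 74.7 CPM in KO. Both lay below Syn1. Timp4 (WT mean 37.9, KO mean 32.4 CPM) likewise lay below Syn2. Timp3 was the reverse, with a WT mean of 115.1 and a KO mean of 131.8 CPM, above Syn3 (17.4 and 16.6 CPM). Outside the synapsins, the opposite-strand gene Ppp1r12b (WT mean 139.2, KO mean 143.5 CPM) exceeded Syt2 (100.1 and 56.3 CPM). The share of opposite-strand reads in these counts was not tested.

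The stretches upstream of Syn1 and Rab3a are shown because these had the highest log2 fold changes (0.57 and 0.38) among members with an entry in the promoter table, and that of Syn2 because it is the paralogue next to Syn1 in abundance. They are the 250 bases before the RefSeq gene start (GRCm38.p6), with Syn1 at chrX:20920919-20921168 on the minus strand, Syn2 at chr6:115134652-115134901 on the plus strand and Rab3a at chr8:70754453-70754702 on the plus strand. Capitals mark every match, on either strand, to 4 motifs, namely the half-site of the neuronal repressor element RE1 (TTCAGCACC), the cyclic AMP response element CRE (TGACGTCA), the EGR site (GCGGGGGCG) and the SP-type GC box (GGGCGG, which reads CCGCCC on the other strand).
Syn1: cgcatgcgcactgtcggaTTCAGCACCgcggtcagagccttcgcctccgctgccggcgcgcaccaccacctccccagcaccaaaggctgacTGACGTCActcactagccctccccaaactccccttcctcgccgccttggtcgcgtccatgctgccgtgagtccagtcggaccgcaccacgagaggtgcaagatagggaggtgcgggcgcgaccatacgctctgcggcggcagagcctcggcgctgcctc
Syn2: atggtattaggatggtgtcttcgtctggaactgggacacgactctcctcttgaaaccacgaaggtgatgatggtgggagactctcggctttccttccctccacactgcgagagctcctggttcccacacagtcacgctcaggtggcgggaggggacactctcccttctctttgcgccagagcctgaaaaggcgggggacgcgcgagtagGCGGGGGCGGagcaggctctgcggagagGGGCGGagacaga
Rab3a: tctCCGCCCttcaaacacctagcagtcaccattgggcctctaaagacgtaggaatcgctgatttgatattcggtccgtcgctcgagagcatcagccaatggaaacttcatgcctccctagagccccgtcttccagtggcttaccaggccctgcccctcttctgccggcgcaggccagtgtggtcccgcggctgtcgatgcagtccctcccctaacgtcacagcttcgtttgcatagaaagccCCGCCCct
In Syn1 the RE1 half-site began at position −232 and the CRE at −159, counted back from the gene start at −1. In Syn2 the EGR match began at −41 and overlaps a GC box that began at −37, and a further GC box began at −13. Rab3a held GC boxes that began at −247 and −8. Syn2 and Rab3a each have a second start in the table, at chr6:115238744-115238993 and chr8:70754852-70755101, and neither stretch held a match to any of the 4 motifs. The promoter table matched 31 of the 38 members, with 41 start sites. The GC box was in 24 of these 41 stretches (58.5%), against 32.7% of all 32851 stretches of the same length, and the median GC content was 61.2% against 52.4%. The RE1 half-site and the CRE were each in 1 of the 41 (2.44%), that of Syn1, against 0.301% and 1.55% of all. The EGR match was in 2 (4.88%), those of Syn2 and Stxbp5, against 2.57%. These matches are letters in a window and were not tested against the values.

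Among the calcium sensors, Syt1, which triggers fast release in forebrain neurons (ENSMUSG00000035864, chromosome 10, 108497650 to 109010982, minus strand), gave 1649, 1677 and 1381 CPM in WT libraries against 2151, 1942 and 1717 CPM in KO libraries. The genotypes did not overlap, although the female KO library lay just above WT replicate 2. The means were 1569 ± 163 and 1937 ± 217 CPM (SD, n = 3 each, with a log2 fold change of 0.30, SE 0.095, edgeR adjusted p = 0.735), and the log2 fold change was 0.26 without KO replicate 1 and 0.14 without it and WT replicate F1. Syt5, another synaptotagmin of vesicles, gave 178, 182 and 150 CPM in WT libraries and 187, 218 and 200.2 CPM in KO libraries, with no overlap and KO replicate 1 the lowest of the KO libraries (0.25, SE 0.11, edgeR adjusted p = 0.735). Syt11, a synaptotagmin that does not bind calcium, was the steadiest of the 38 genes, with a coefficient of variation of 3.4% over the 6 libraries. It gave 719, 712 and 729.8 CPM in WT libraries and 755, 775 and 762 CPM in KO libraries, so even this small shift did not overlap (0.08, SE 0.084). Syt4 (0.13) and Syt7 (0.12), whose proteins act in dense core vesicle and slow release, overlapped between the genotypes.

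Syt2 lay on the other side of 0 from Syt1. It is the fast calcium sensor of the hindbrain, cerebellum and spinal cord, and it gave 76.1, 59.8 and 164 CPM in WT libraries against 46.6, 65.2 and 57.2 CPM in KO libraries. WT replicate F1, the library with the highest cerebellar marker sum, was far above the other 5, which overlapped between the genotypes. KO replicate 1, with the next highest marker sum, was the lowest for Syt2, so the order of the libraries for Syt2 was not that of the markers. The log2 fold change was −0.69 (SE 0.29, edgeR adjusted p = 0.735), −0.28 (SE 0.21) without WT replicate F1 and −0.15 (SE 0.14) without WT replicate F1 and KO replicate 1. Its coefficient of variation of 55.4% was the largest of the set. The part of the cerebellar signal in this difference was not tested.

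**Figure D3:**
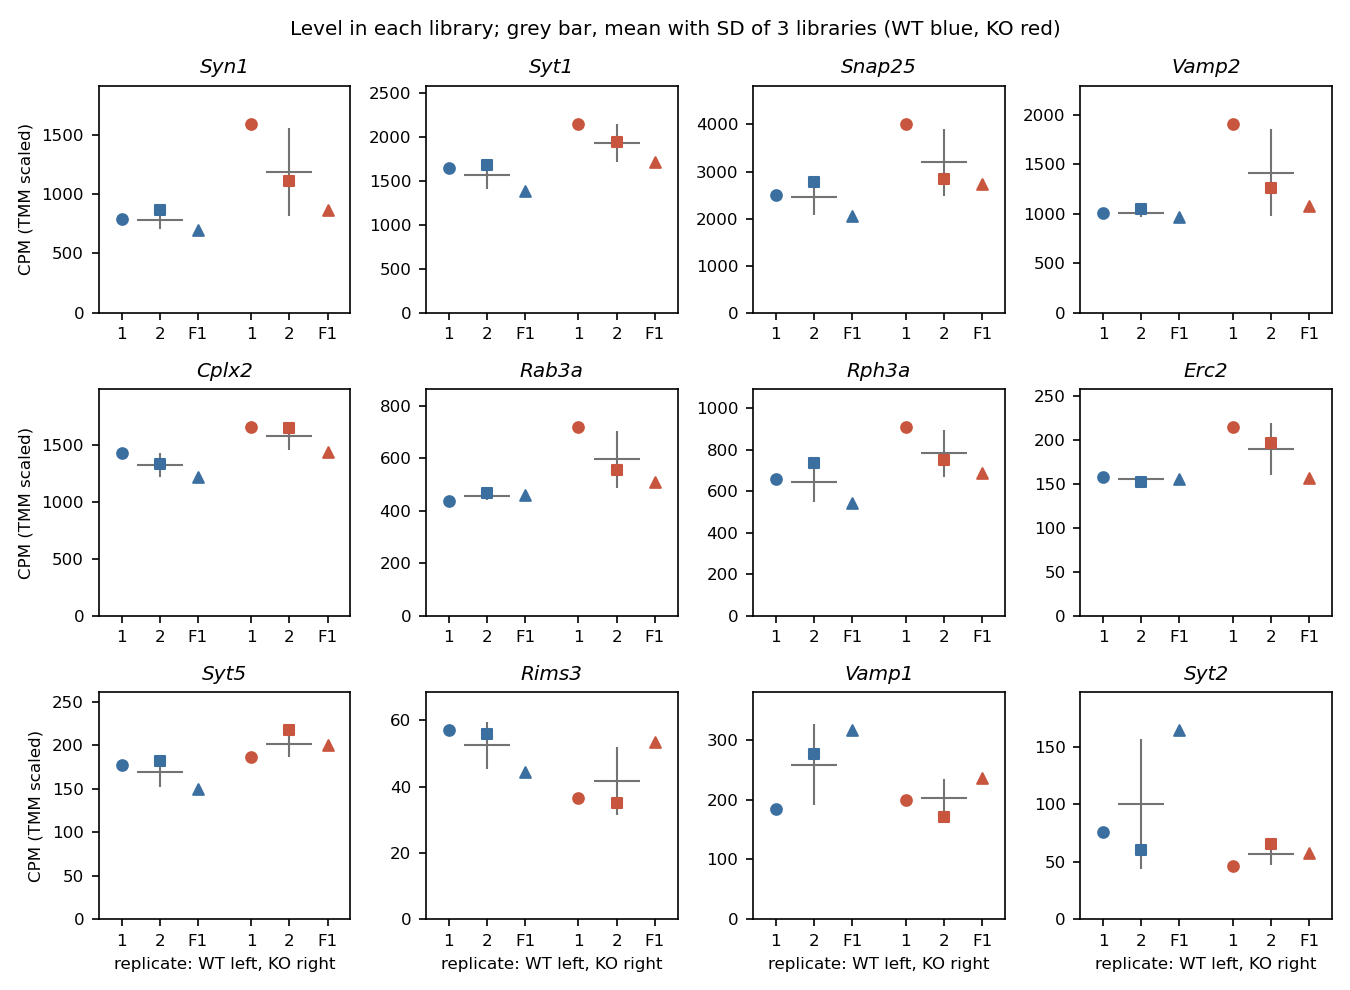
TMM-scaled CPM in each library for 12 of the genes, WT in blue and KO in red, with replicates 1, 2 and F1 in order and a grey bar for the mean with SD of 3 libraries; each axis starts at 0. KO replicate 1 is the highest point for Syn1, Syt1, Snap25, Vamp2, Cplx2, Rab3a, Rph3a and Erc2, while Syt2 and Vamp1 have their highest point in WT replicate F1.

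The SNARE genes and their regulators were the class with the most members above 0, 9 of 10, with a median log2 fold change of 0.12. Snap25, the target of botulinum toxin A (ENSMUSG00000027273, chromosome 2, 136713453 to 136782428, plus strand), gave 2510, 2787 and 2058 CPM in WT libraries and 4015, 2835 and 2743 CPM in KO libraries. KO replicate 1 was far above the rest, and KO replicate F1 lay below WT replicate 2. The means were 2452 ± 368 and 3197 ± 709 CPM (SD, n = 3 each, with a log2 fold change of 0.39, SE 0.15, edgeR adjusted p = 0.735). Without KO replicate 1 the log2 fold change was 0.24 (SE 0.1), and without it and WT replicate F1 it was 0.08 (SE 0.077).

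Vamp2, the synaptobrevin of forebrain vesicles (ENSMUSG00000020894, chromosome 11, 69088490 to 69092384, plus strand), gave 1003, 1044 and 967 CPM in WT libraries and 1909, 1260 and 1075 CPM in KO libraries. The genotypes did not overlap, with the WT libraries close together and the KO libraries spread out. The means were 1005 ± 38.7 and 1415 ± 438 CPM (SD, n = 3 each, with a log2 fold change of 0.47, SE 0.18, edgeR adjusted p = 0.735), and the log2 fold change was 0.24 (SE 0.064) without KO replicate 1. Vamp1, the paralogue that prevails in spinal cord and brainstem, lay the other way, at 184, 276 and 316 CPM in WT and 199, 170 and 236 CPM in KO. Its genotypes overlapped, since WT replicate 1 lay below 2 of the KO libraries (−0.35, SE 0.16, edgeR adjusted p = 0.735). The log2 fold change of Vamp1 was −0.51 without WT replicate 1 and −0.18 without WT replicate 2. The ratio of Vamp2 to Vamp1 in TPM was 7.1, 4.93 and 3.95 in WT libraries and 12.5, 9.51 and 5.97 in KO libraries. Within males and within females the KO ratios were the higher ones, but KO replicate F1 lay below WT replicate 1.

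The complexins were closer together. Cplx2, the complexin of excitatory forebrain neurons, gave 1430, 1339 and 1218 CPM in WT libraries and 1662, 1649 and 1440 CPM in KO libraries, and Cplx1 at 908, 988 and 898 CPM and 1061, 1046 and 990 CPM. Neither overlapped between the genotypes, though in both the female KO library lay just above the highest WT library. The log2 fold changes were 0.25 (SE 0.09, edgeR adjusted p = 0.735) for Cplx2 and 0.15 (SE 0.089, edgeR adjusted p = 0.75) for Cplx1, and without WT replicate F1 and KO replicate 1 they were 0.16 and 0.11. The syntaxin gene Stx1a gave 175, 197 and 116 CPM in WT libraries and 131, 208 and 182 CPM in KO libraries, with the lowest values in WT replicate F1 and KO replicate 1 (0.13, SE 0.23). Nsf (0.11), its adaptor gene Napb (0.01), the ubiquitous SNARE gene Snap47 (0.02) and the tomosyn gene Stxbp5 (0.09), whose protein holds back SNARE assembly, lay close to 0, and of these 4 only Stxbp5 did not overlap.

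The active zone scaffold had 6 of 10 members above 0 and a median of 0.04, and none of the 10 separated the genotypes. Erc2, the neuronal ELKS protein that links RIM and Bassoon, gave 158, 153 and 156 CPM in WT libraries and 215, 197 and 157 CPM in KO libraries. The male KO libraries were above all WT libraries and the female KO library was among them (0.28, SE 0.11, edgeR adjusted p = 0.735). Pclo, the Piccolo gene, gave 281, 286 and 246 CPM in WT libraries and 409.8, 268 and 273 CPM in KO libraries, so that only KO replicate 1 was high (0.22, SE 0.16), and without that library its log2 fold change was 0.02. Bsn, its partner, lay between 455 and 554 CPM in all 6 libraries (0.04, SE 0.088).

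Of the priming factors, Unc13a, the main Munc13 of forebrain synapses, gave 443, 473 and 343 CPM in WT libraries and 415, 461 and 451 CPM in KO libraries, with full overlap (0.09, SE 0.12, edgeR adjusted p = 0.874). Unc13b (−0.11) and Unc13c (−0.14), the latter a gene of cerebellar granule cells, lay below 0 and overlapped. Unc13c was highest in WT replicate F1, at 113 CPM against 75.1 to 99.5 CPM elsewhere. Rims1, the RIM protein that recruits calcium channels, gave 182, 182 and 146 CPM in WT libraries and 165, 177 and 149 CPM in KO libraries (−0.05, SE 0.088, edgeR adjusted p = 0.895), low in both females. Rims3, a short RIM without the priming domain, gave 57.0, 55.8 and 44.4 CPM in WT libraries and 36.6, 35.04 and 53.6 CPM in KO libraries. In males both KO libraries lay below both WT libraries and in females the order turned, for a log2 fold change of −0.35 over all libraries (SE 0.2, edgeR adjusted p = 0.745) and −0.65 in males alone (SE 0.13, edgeR adjusted p = 0.317).

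Among the vesicle membrane genes, Rab3a, the small GTPase of docked vesicles (ENSMUSG00000031840, chromosome 8, 70754679 to 70758677, plus strand), gave 438.5, 469 and 458 CPM in WT libraries and 719, 556 and 511 CPM in KO libraries. The genotypes did not overlap and the WT libraries were close together. The means were 455 ± 15.3 and 596 ± 109 CPM (SD, n = 3 each, with a log2 fold change of 0.38, SE 0.13, edgeR adjusted p = 0.735), and the log2 fold change was 0.24 without KO replicate 1, with or without WT replicate F1. Rph3a, the Rab3 effector rabphilin, gave 659.7, 735 and 544 CPM in WT libraries and 909.7, 752.5 and 686 CPM in KO libraries, where KO replicate F1 lay among the WT libraries (0.28, SE 0.11, edgeR adjusted p = 0.735). Without WT replicate F1 and KO replicate 1 its log2 fold change was 0.05.

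Syp and the Sv2 genes lay closer to 0. Syp, the classic vesicle marker synaptophysin, gave 1195, 1233 and 1261 CPM in WT libraries and 1194, 1333 and 1242 CPM in KO libraries, a coefficient of variation of 4.16% (log2 fold change 0.03, SE 0.095, edgeR adjusted p = 0.94). Sv2a, the binding site of the antiepileptic levetiracetam, gave 491, 513 and 551 CPM in WT libraries and 448, 478 and 513 CPM in KO libraries, overlapping with a slight lean below 0 (−0.11, SE 0.085, edgeR adjusted p = 0.786). Sv2b (0.08) and Sv2c (0.04) lay near 0. Sypl, a synaptophysin relative that many tissues express, ranged from 16.1 CPM in WT replicate F1 to 30.6 CPM in KO replicate 1 (−0.10, SE 0.23). In membrane recovery, Dnm1 gave 1018, 1102 and 1018 CPM in WT libraries and 1241, 1240 and 1133 CPM in KO libraries, without overlap (0.20, SE 0.091, edgeR adjusted p = 0.735). Amph, the amphiphysin that brings dynamin to the vesicle neck, gave 208, 225 and 218 CPM in WT libraries and 221, 243 and 212 CPM in KO libraries, which overlapped (0.05, SE 0.095, edgeR adjusted p = 0.904).

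KO replicate 1 was the highest library for 18 of the 38 genes, against 28.2% of all genes tested, and WT replicate F1 the lowest for 20, against 20.3%. Among the 9 members of 800 CPM or more, KO replicate 1 was the highest in 8 and WT replicate F1 the lowest in 7, against 54 and 44 of all 106 genes at that level. Among the 29 members under 800 CPM these counts were 10 and 13. Summed over all 38, the level was 18750, 19601 and 17775 CPM in WT libraries and 23949, 21295 and 19746 CPM in KO libraries. The lowest KO sum was 19746 CPM and the highest WT sum 19601 CPM, so they barely separated, and only on the TMM scale. As a share of all counts, without TMM scaling, the 38 genes held 1.98%, 2.05% and 1.92% in WT libraries. They held 1.96%, 2.1% and 2.04% in KO libraries, so the genotypes overlapped. As a share of TPM, KO replicate 1 was the lowest library, at 1.2% against 1.38% to 1.52% elsewhere. The sum of 10 general neuronal markers stood between 4535 and 4706 CPM in WT and between 4519 and 4937 CPM in KO. Single markers moved both ways under this sum, with 6 of 10 above 0 (median 0.01). Elavl4 (0.45) and Rbfox3 (0.34) were the highest in log2 fold change, and Snhg11 (−0.23) and Tubb3 (−0.18) the lowest. The sum of 12 cortical and hippocampal markers was 1333, 1425 and 1108 CPM in WT libraries and 1439, 1692 and 1347 CPM in KO libraries, with all 12 above 0 in log2 fold change (median 0.33). None of the 12 was at 0 in any library, and none passed the test. Striatal markers, 10 in number, summed to 713.5 CPM in WT replicate F1 and to between 1308 and 2156 CPM elsewhere, with 9 of 10 above 0 (median 0.37). Hypothalamic neuron markers leaned the other way, with 2 of 13 above 0 (median −0.59) and sums between 238.3 and 378.9 CPM in WT and between 263.7 and 296.6 CPM in KO. Sst alone gave 188.9 to 249.2 CPM of each hypothalamic sum, at a log2 fold change of 0.08. Among these markers Avp had a log2 fold change of −1.36 and Oxt of −1.17. For both, WT replicate 2 (Avp 5.96 CPM, Oxt 5.75 CPM) lay among the KO libraries, and none of either list passed the test. The part of these regional differences in the presynaptic values was not tested. Astrocyte markers summed to between 3720 and 3796 CPM in WT and between 3587 and 4684 CPM in KO.

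**Figure D4:**
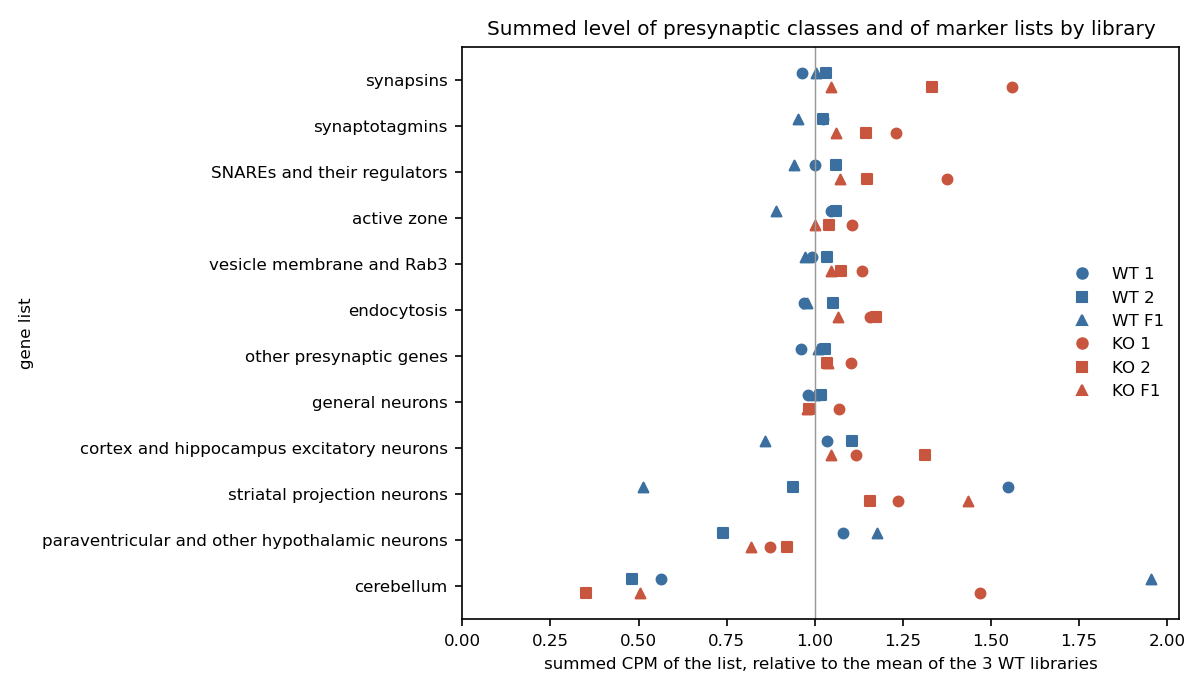
Summed CPM of each presynaptic class and of marker lists in each library, divided by the mean of the 3 WT libraries, with WT in blue, KO in red and circles, squares and triangles for replicates 1, 2 and F1. The sum of general neuronal markers stays close to 1 in all libraries, though single markers moved both ways. The SNARE and synaptotagmin sums lie above 1 in KO with KO replicate 1 the farthest, and the cerebellar sum is high in WT replicate F1 and KO replicate 1.

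The sign of most values depended on the scaling. Library totals without TMM, whose factor was 0.8201 in KO replicate 1 and between 0.9871 and 1.083 in the others, moved the median of all genes to −0.17 and left 11 of 38 members above 0. With deposited TPM, as log2(TPM + 1), the median of all genes was −0.24 and 4 members lay above 0, namely Syn1 (0.27), Vamp2 (0.16), Rab3a (0.08) and Snap25 (0.08), whereas Syt1 (−0.02), Cplx2 (−0.04), Erc2 (−0.14) and Syt5 (−0.10) turned. Above the median of all genes lay 29 members under TMM, 29 under library totals, 22 with log2(TPM + 1) and 28 with log2(TPM + 0.1). Syn1 lay between 0.26 and 0.72 above that median under all 19 alternatives, Vamp2 between 0.19 and 0.64, Rab3a between 0.24 and 0.50 and Snap25 between 0.08 and 0.53. Also above that median in all 19 were Syt1, Syt4, Syt5, Syt11, Stxbp5, Cplx1, Cplx2, Nsf, Erc2, Rph3a and Dnm1. On the other side, 7 genes lay below it in all 19, namely Syt2 (−0.95 to −0.15), Rims3 (−0.65 to −0.22), Vamp1 (−0.51 to −0.18), Rims1, Sv2a, Unc13b and Unc13c. Over these alternatives the smallest adjusted p of any of the 38 was 0.157, for Sypl without WT replicate F1 and KO replicate 1, where it stood at −0.66 (SE 0.1).

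**Figure D5:**
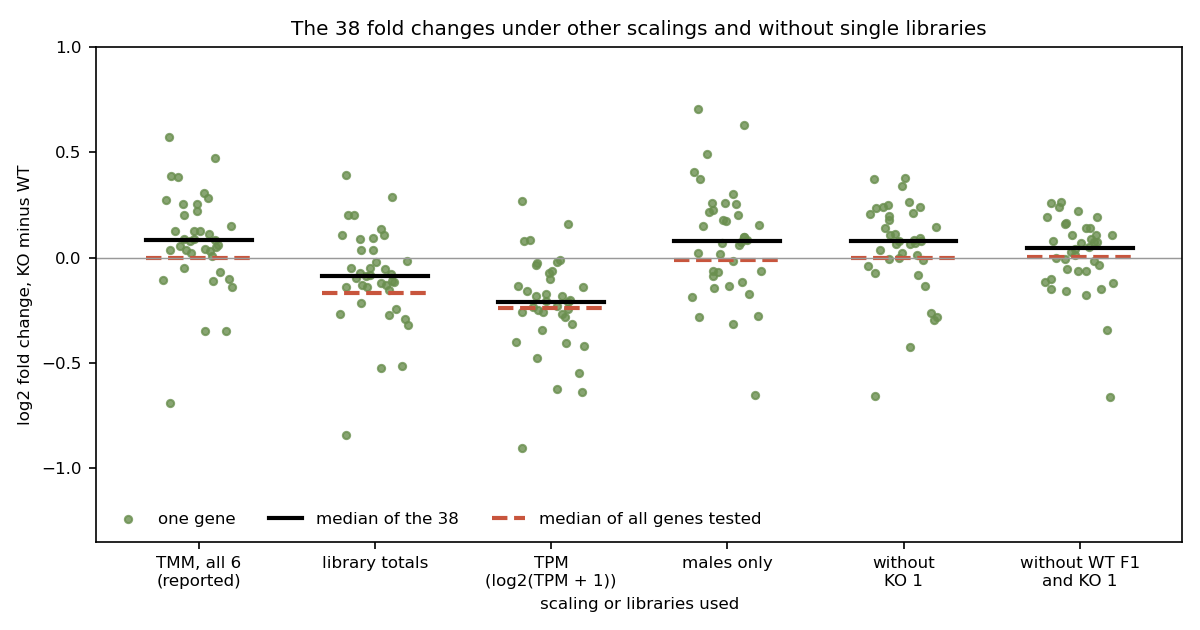
Log2 fold changes of the 38 genes (points), their median (black line) and the median of all genes tested (dashed line) under the reported TMM fit, library totals, TPM, males alone, without KO replicate 1, and without WT replicate F1 and KO replicate 1. Both medians drop together under library totals (−0.09 and −0.17) and TPM (−0.21 and −0.24), and the highest points shrink once KO replicate 1 is left out.

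The count of members at an unadjusted p under 0.05 and higher in KO, 9 with all libraries, was 0 without WT replicate 1, 1 without WT replicate 2, 4 without either female library, 8 without KO replicate 1 and 8 without KO replicate 2. In each of these settings 1 member was lower. The same count over all genes moved too, from 730 of 18956 with all libraries to 306 without WT replicate 1 and 360 without WT replicate 2. It was 1032 without WT replicate F1, 1031 without KO replicate F1, 937 without KO replicate 1 and 1049 without KO replicate 2. Without WT replicate F1 and KO replicate 1 the count of members was 2, Syt5 and Rab3a, against 645 of all 19126 genes tested. There 1 member was lower, and the median of the 38 was 0.04. Sex could not be a term there, as KO replicate F1 was left as the single female.

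Sex was the other labelled factor. Between females and males DESeq2 called 0 of the 38 genes and 56 of all genes. In the same edgeR fit 0 of the 38 passed, where 8 of all genes (0.0422%) did. At an unadjusted p under 0.05 there were 5, where 4.58% of all genes were, and all 5 were lower in females, against 2.63% of all genes in that direction. Of the 38, 26 lay below 0, against 50.1% of all genes. Abundant genes as a whole leaned this way too. Among the 438 genes at or above the members' median level of 316.3 CPM, 294 lay below 0. An unadjusted p under 0.05 for sex was found for 43 of the 438, a comparison chosen after the values were seen. The 5 members with an unadjusted p under 0.05 were Syn1 (log2 difference, female minus male, −0.43, SE 0.18), Syt1 (−0.26, SE 0.1), Rims1 (−0.26, SE 0.095), Rph3a (−0.32, SE 0.12) and Sypl (−0.59, SE 0.25). Syn1 and Syp are the X-linked members, and Syp differed by 0.01 (SE 0.1). The female WT library is also the one with high cerebellar markers, and the part of this in the sex difference was not tested. The test of whether the genotype difference itself varied with sex called 0 of the 38 in DESeq2, and 214 of all genes. In edgeR this test called 0 of the 38, where 14 genes (0.0739%) passed. At an unadjusted p under 0.05 there were 3 members, a share like the 7.42% of all genes, and they are named only for completeness. They were Syt2 (−1.24, SE 0.36), Rims2 (0.54, SE 0.22) and Rims3 (0.93, SE 0.22), as the KO minus WT difference in females less that in males. Each genotype has 1 female library, so the spread in this test comes from the males alone, and the value of Syt2 rests on WT replicate F1, which stands apart.

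Outside the set 66 further presynaptic genes were listed, among them other SNAREs, synaptotagmins, Rab3 paralogues, liprins and endocytic adaptors, and 65 passed the filter on low counts. Of the 65 tested, 0 passed in edgeR or DESeq2, the unadjusted p was under 0.05 for 3 that stood higher and 1 that stood lower, and 42 (64.6%) lay above 0 with a median of 0.06. The 4 are a share like the 6.38% of all genes, and are named only for completeness. The 3 higher ones were Cplx3, the complexin of ribbon synapses and some cortical neurons, at 13.7, 16.0 and 8.64 CPM in WT and 19.7, 21.3 and 13.8 CPM in KO (a log2 fold change of 0.53 with SE 0.13), the synuclein gene Sncb (0.28, SE 0.11) and the clathrin light chain gene Cltb (0.20, SE 0.085). Sncb lay between 443 and 472 CPM in WT and between 484 and 638 CPM in KO, and Cltb between 199 and 204 CPM in WT and between 224 and 245 CPM in KO, both without overlap. The liprin gene Ppfia4 was the lower one, between 73.5 and 103 CPM in WT and between 54.1 and 74.7 CPM in KO, which overlapped (−0.32, SE 0.13). The edgeR adjusted p of each was 0.735.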

How the data were processed

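Per the file headers, the deposited table lists each gene's read count, TPM and FPKM in every library. The submitters' processing notes name FastQC 0.11.2, Trimmomatic 0.36 and bedtools 2.26.0, with no role, and the aligner, counter, strand setting and build were not stated there. The deposited TPM values served for levels between genes and an alternative test. The deposited FPKM values were not used. Of the gene identifiers 99.6% are in GENCODE M21, and 35 of the 38 members have identical GRCm38 coordinates there, so coordinates are read as GRCm38.

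Genes were kept with filterByExpr, leaving 18956, scaled by TMM and tested with edgeR 4.0.16 (R 4.3.3), robust quasi-likelihood with sex and genotype as terms, Benjamini-Hochberg over all genes at 0.05. Standard errors are the log2 fold change over the square root of F. The interaction fit leaves 2 residual degrees of freedom. The fit was first tested on simulated data. Alternatives used DESeq2 1.42.0 and limma 3.58.1.

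The members and gene lists were chosen with earlier results of these data known. Given in full were members with an unadjusted p under 0.05, the 2 smallest p per class and the family member of highest TPM. Syn2, Syt2, Syt11, Vamp1, Stx1a and Pclo were added after their values were seen.

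Depth limits precision little here, as every member had at least 509 counts per library. A floor of 3 counts corresponds to between 0.055 and 0.085 CPM, for counting error only.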

Additional observations from a re-analysis of the deposited data

How the results depend on the processing

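Under 19 alternatives, among them other scalings, filters, tools, library subsets and each library left out in turn, 0 of the 38 genes and 0 of the 65 other presynaptic genes passed for KO against WT, and 0 members passed for sex or the interaction under the 5 alternatives run. The count over all genes, 1 as reported, was 75 with DESeq2, 3 with genotype alone, 4 and 5 with limma-trend on log2(TPM + 1) and log2(TPM + 0.1), 18 in males only, 4 without a filter, 4 with voom weights and 27 without WT replicate F1 and KO replicate 1, and between 0 and 20 leaving out 1 library. With the replicate number as a replicate block it was 0, and the members' median was 0.08. The numbers share only a label, since deviations of same-numbered libraries correlated at −0.04, 0.02 and 0.02. The members' median, 0.08 as reported, became −0.0856 with library totals and −0.21 with TPM at either pseudocount, and lay between 0.08 and 0.11 leaving out 1 library. Some signs turned, and the cause was not tested. With library totals Amph stood at −0.11, Cplx1 at −0.0185, Syp at −0.13 and Unc13a at −0.0747. With TPM at the pseudocounts 1 and 0.1 Amph stood at −0.24, Cplx1 and Erc2 at −0.14, Cplx2 at −0.037 and −0.0371, Dnm1 at −0.0268 and −0.0269, Rph3a at −0.0136, Syp at −0.27, Syt1 at −0.0191, Syt5 at −0.10 and Unc13a at −0.1848 and −0.1865. Leaving out 1 library, Amph ran from −0.0019 to 0.0984, Syn3 from −0.1717 to 0.0492 and Syp from −0.0219 to 0.0708, each turning without KO replicate 2. Unc13a ran from −0.0662 to 0.1775, turning without either female library, and stood at −0.066 in males only and −0.0056 without WT replicate F1 and KO replicate 1. With sex as a term, leaving out a female library leaves only the contrast between the males, so these 3 settings are near-equal by construction.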
